A study of Mus musculus with 28 samples.

Results

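The data were SIRT7 binding sites on mouse chromosomes 1 to 19, taken from 2 deposited peak lists of wild-type fibroblasts. One list came from untreated cells (NT) and one from starved cells (GS). The members were all listed peaks on these chromosomes, 58 in NT and 2272 in GS, or 2330 of the 2761 SIRT7 peaks of the series. Peaks on X and Y were left out. The cells were wild-type mouse embryonic fibroblasts of strain 129s2, from embryos of day 14.5, used at passages 3 to 4. Each treatment had 2 SIRT7 ChIP libraries, made from nuclear extracts with 1 antibody, and 2 single-end input libraries without antibody. The labels do not expand NT or GS, and the reading of GS as glucose starvation follows the series title. The sources do not say how long the cells were starved, or whether replicates came from separate cultures. Both replicates of a treatment stand behind 1 list, which leaves the values without replicate error and the treatments without a test of their difference. No SIRT7 ChIP from cells without SIRT7 was used here, so peaks that do not depend on the protein were not separated from the others. Read depth is unknown, and its part in the number of peaks was not tested.

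SIRT7 is a nuclear member of the sirtuins, enzymes that use NAD to remove acetyl groups and related modifications from proteins. It is best known for its place in the nucleolus, where it acts on the transcription of ribosomal RNA genes, and for removing acetyl groups from histone H3. Because sirtuins need NAD, they are studied as links between nutrient supply and chromatin. The title of the series names macroH2A1.1, a histone variant that can bind ADP-ribose, as a partner in the response to starvation. A ChIP peak is a stretch of genome where DNA precipitated with the antibody was enriched. It says where the protein or its complex was crosslinked, not what it did there.

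The question of this comparison was which SIRT7 sites persisted, disappeared or appeared under starvation. A peak was counted as kept when it shared 1 bp or more with a peak of the other list. On the autosomes 32 of 58 NT peaks were kept (55.2%, Wilson 95% interval 42.5 to 67.3%) and 26 were lost. In the GS list 32 peaks were kept, 1.41% of the list (interval 0.999 to 1.98%), and 2240 were gained (98.6%). Untreated sites were thus divided between kept and lost. The share gained is largely set by the unequal length of the lists, since 58 NT peaks can match few of 2272. Among the 58 GS peaks with the highest scores, as many as the NT list holds, 36 were gained (62.1%). These intervals, like all below, cover counting error only. The GS list held 39.2 peaks for each NT peak and covered 3199 kb against 80.006 kb, a ratio of 39.98. Mean widths were similar, 1379 bp in NT and 1408 bp in GS, and the larger peak length of the GS list was mostly a matter of number. The median widths were 940 bp in NT (interval 714 to 1108 bp) and 1177 bp in GS (interval 1145 to 1224 bp). These 2 intervals do not overlap. The bases in common came to 34.9 kb, which was 43.6% of all NT peak bases and 1.09% of all GS peak bases.

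The kept sites lay almost exactly on top of each other. They formed 33 overlapping pairs, since 1 NT peak touched 2 GS peaks on chromosome 11. The midpoints of a pair were a median of 38.5 bp apart (95% interval of the median 29 to 78.5 bp), and in 25 of 33 pairs they lay within 100 bp. In 30 of 33 pairs the shared bases made up at least 50% of both peaks. The GS peak was narrower than its NT partner in 17 pairs and wider in 16, with a median ratio of 0.993 (interval 0.963 to 1.04). The widths of the partners followed each other over the whole range (Spearman's rho 0.843 across 33 pairs, which share the site and its sequence).

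**Figure D1:**
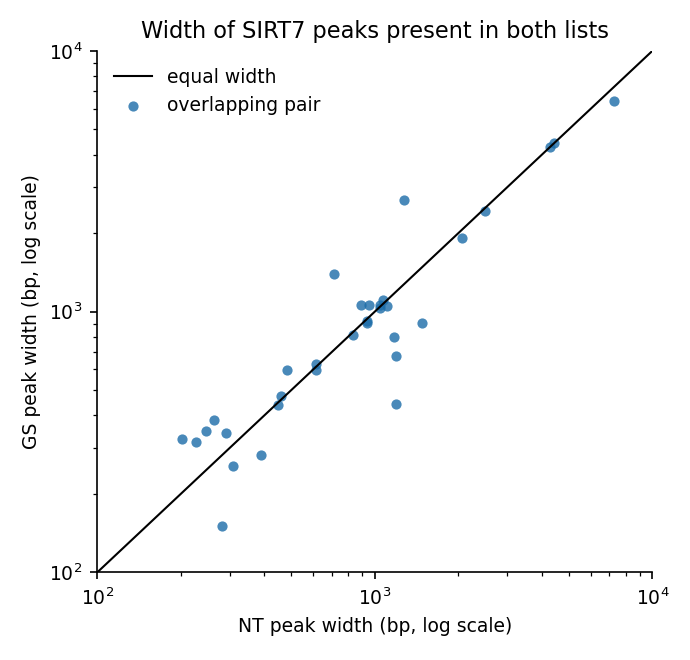
Width of the GS peak against the width of the NT peak, in bp on log axes, for the 33 overlapping pairs, with the line of equal width. Points follow the line from about 202 to 7269 bp in NT, with 17 below and 16 above it.

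The 10 kept sites with the highest NT score are given with both positions (mm9). The score is a whole number that the authors deposited with each peak, capped at 1000, and it is used here only to rank peaks within a list. In NT 7 autosomal peaks reached 1000, and all 7 were kept. Their NT and GS outlines were nearly the same at chr5:37051859-37052966, where the GS peak spanned chr5:37051851-37052903 and shared 94.3% of the NT bases. At chr3:95848277-95849111 the GS peak chr3:95848325-95849134 shared 94.3% of the NT bases as well. Both sites had the top score in both lists. On chromosome 17 the NT peaks chr17:4626110-4626721 and chr17:56339160-56339617 shared 96.9 and 93.0% of their bases with GS peaks, again at a score of 1000 in both lists. Both peaks were short, with 612 and 458 bp in NT and 597 and 474 bp in GS. On chromosome 6, chr6:125826815-125827296 lay wholly inside a GS peak of 596 bp that scored 981. The second chromosome 6 site, chr6:132413590-132413978, shared 70.4% of its bases with a narrower GS peak of 283 bp at score 1000. The seventh, chr1:45007912-45008202, shared 96.2% with a GS peak of score 931. All 7 sites were thus strong in both treatments. The next in order were chr9:19379796-19379997 (NT score 981, 202 bp), inside a GS peak of 326 bp, chr4:146694936-146702204 (897, 7269 bp), met by a GS peak of 6439 bp, and chr11:34495153-34496195 (844, 1043 bp), met by one of 1036 bp. Their GS partners all scored 1000.

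Kept sites stood near the top of the GS list. Their median GS score was 992 against 628 for gained peaks, which put the median kept peak at percentile 98.9 of the list and the median gained peak at 49.4. Of the 32 kept GS peaks, 27 fell among the 228 peaks with the highest scores, where they made up 11.8% (interval 8.27 to 16.7%). The next 228 peaks held 2 kept ones. The remaining 3 scored 645, 638 and 538, at chr13:40027039-40027839, chr10:129314649-129315091 and chr2:60240542-60241446, the last at rank 2253 of 2272. Of the 22 GS peaks with a score of 1000, 15 were kept and 7 gained. Among the first 50 GS peaks 22 were kept (44%), and extending the list to the first 100 added none. The sites shared with untreated cells were therefore concentrated in a short stretch at the head of the GS list, with a few far down.

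In the NT list the classes were less far apart. Kept peaks had a median score of 698 (interval 637 to 844) and lost peaks 603.5 (interval 585 to 659). With the list divided into 3 by score, 17 of 20 peaks with scores of 690 or more were kept (85%, interval 63.96 to 94.8%). Of the 19 peaks scoring 610 to 686, 10 were kept (52.6%, interval 31.7 to 72.7%), and of the 19 scoring 538 to 607, 5 were kept (26.3%, interval 11.8 to 48.8%). The share kept thus went down with the NT score, and the outer intervals do not overlap. Within the pairs, NT and GS scores followed each other loosely (Spearman's rho 0.514 across 33 pairs). A site such as chr14:111759971-111760684, with an NT score of 613, had a GS partner at 1000.

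**Figure D2:**
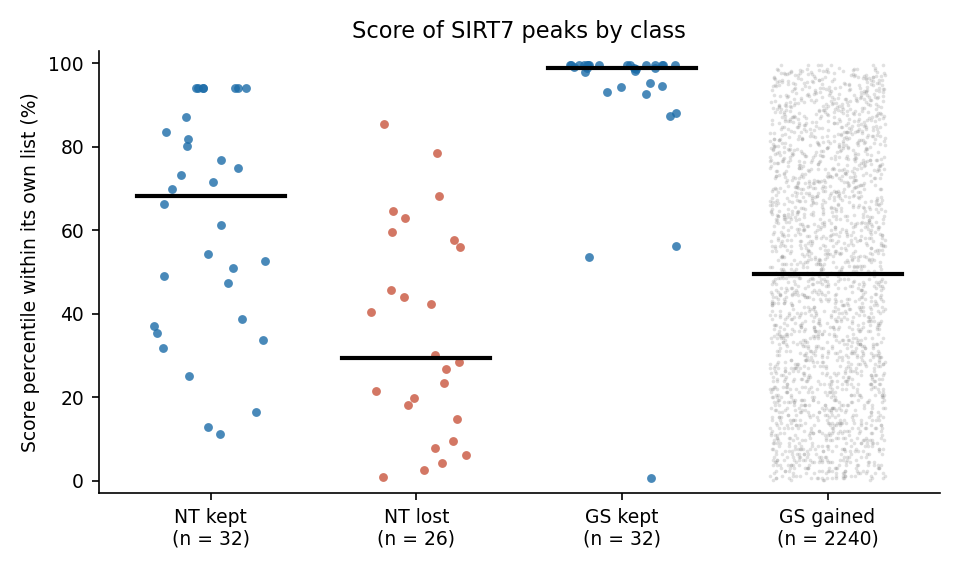
Score percentile of each SIRT7 peak within its own list, in percent, by class, with 1 point per peak and a line at the class median. Medians were 68.1 for kept and 29.3 for lost NT peaks, and 98.9 for kept and 49.4 for gained GS peaks.

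The 26 lost NT peaks were not near misses. None had a GS peak within 1 kb, which with 26 peaks allows a share of up to 11.5%, and 4 had one within 100 kb. The median distance to the nearest GS peak was 819 kb (interval 324 to 1555 kb). The nearest case was chr6:130643180-130646253, which lay 1.93 kb from a GS peak inside a group of 7 GS peaks. The farthest was chr11:84706866-84707530, at 5946 kb. The share of autosomal length within 100 kb of a GS peak was not computed. These distances therefore do not set lost sites apart from other sequence.

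Of the 8 lost peaks with the highest NT score, the first was chr4:131301168-131302029, with a score of 922 and 5243 kb to the nearest GS peak. It lay with 2 other lost peaks, chr4:128181722-128182224 and chr4:128441233-128442370, in the longest interval between neighbouring GS peaks on any autosome, 16.98 Mb at chr4:126057887-143041001. The second, chr5:90048710-90051153 (score 775), was 1178 kb from a GS peak and the third, chr15:10395559-10396162 (700), 1555 kb. Next were chr4:23584014-23584966 (686, at 669 kb) and chr19:56396778-56397626 (678, at 2196 kb). Only 2 of the 8 were closer than 500 kb, chr15:91736749-91741008 (670) at 16.3 kb and chr4:145481540-145485809 (666) at 273 kb. The eighth, chr7:147037560-147038464 (659), lay 2153 kb away, distal to all GS peaks of its chromosome. In all 4 lost peaks lay outside the outermost GS peak of their chromosome.

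Set against all autosomal sequence, the lost peaks were spread over GS-poor regions about as widely as such regions extend, except for the longest. Intervals of over 1 Mb between neighbouring GS peaks took up 75.3% of the autosomes and held 19 of the 26 lost peaks (73.1%). Those over 5 Mb took up 19.002% and held 6 (23.1%, interval 11.03 to 42.1%). The 7 intervals over 10 Mb took up 3.795% and held 5 (19.2%, interval 8.51 to 37.9%), of which 3 were the chromosome 4 peaks. No other GS peak lay within 1 Mb of 12 of the 26 lost peaks (46.2%, interval 28.8 to 64.5%) and of 9 of the 32 kept ones (28.1%, interval 15.6 to 45.4%). These intervals overlap, and the difference was not tested.

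Among gained peaks, 309 of 2240 (13.8%, interval 12.4 to 15.3%) had no other GS peak within 1 Mb. At a distance of up to 1 Mb, gained peaks lay near NT sites about as often as the sequence at large. Of the 2154 gained peaks on chromosomes that had an NT peak, 95 (4.41%, interval 3.62 to 5.36%) lay within 1 Mb of one, and 4.31% of the length of these chromosomes did. Within 100 kb there were 17 (0.789%, interval 0.493 to 1.26%), against 0.476% of the length. At this shorter distance the interval lies just above the share of length, and the difference was not tested. Chromosome 18 had no NT peak, and its 86 GS peaks were all gained. Of the 8 highest-scoring gained peaks, 3 lay within 1 Mb of an NT peak. They included chr4:146953680-146961804 and chr4:146948711-146953496, 0.251 and 0.247 Mb from the nearest NT peak, with widths of 8125 and 4786 bp. The 2878 bp peak chr6:130527749-130530626 lay 0.113 Mb from one. These 3 had the top score of 1000. The other 4 of score 1000 belonged to no cluster, that is, had no GS peak within 100 kb, and lay farther from NT sites. They were chr5:71027457-71030301 (2845 bp, 19.02 Mb away), chr10:3098576-3100574 (1999 bp, 123 Mb), chr8:90828916-90829561 (646 bp, 21.99 Mb) and chr14:104736127-104736386 (260 bp, 7.02 Mb). The eighth, chr1:174654038-174654739, scored 995 and spanned 702 bp.

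Gained peaks were wider than kept ones. In GS the median width was 1189 bp for gained peaks (interval 1149 to 1230 bp) and 805.5 bp for kept peaks (interval 443 to 1061 bp). Short peaks under 500 bp made up 11 of 32 kept GS peaks (34.4%, interval 20.4 to 51.7%) and 188 of 2240 gained ones (8.39%, interval 7.31 to 9.61%). The intervals of both measures do not overlap. In NT the medians were 914 bp for kept and 961 bp for lost peaks, with overlapping intervals (458 to 1168 and 686 to 1732 bp), and 11 of 32 kept against 2 of 26 lost peaks were under 500 bp. The excess of short peaks among kept sites thus stood clear of the counting error against gained peaks and not against lost ones. Peaks over 2000 bp were found in all classes, 5 of 32 among kept peaks in each list, 6 of 26 among lost and 432 of 2240 among gained (19.3%). Width and score were only loosely related, with a Spearman's rho of -0.235 across the 58 NT peaks and 0.106 across the 2272 GS peaks, which share 1 list and 1 calling step each.

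The spacing of neighbouring peaks differed between lists of such unequal length. In NT the 40 gaps between neighbours on the same chromosome had a median of 14070 kb (interval 4816 to 32373 kb). In GS the 2253 gaps had a median of 499.8 kb (interval 464 to 543 kb) and ran from 1 bp to 16.98 Mb. The short end of the GS distribution held many close pairs, with 75 gaps of at most 1 kb (3.33%), 122 of at most 10 kb (5.42%) and 439 of at most 100 kb (19.5%, interval 17.9 to 21.2%). Of 2482 windows of 1 Mb, 1231 held no GS peak.

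**Figure D3:**
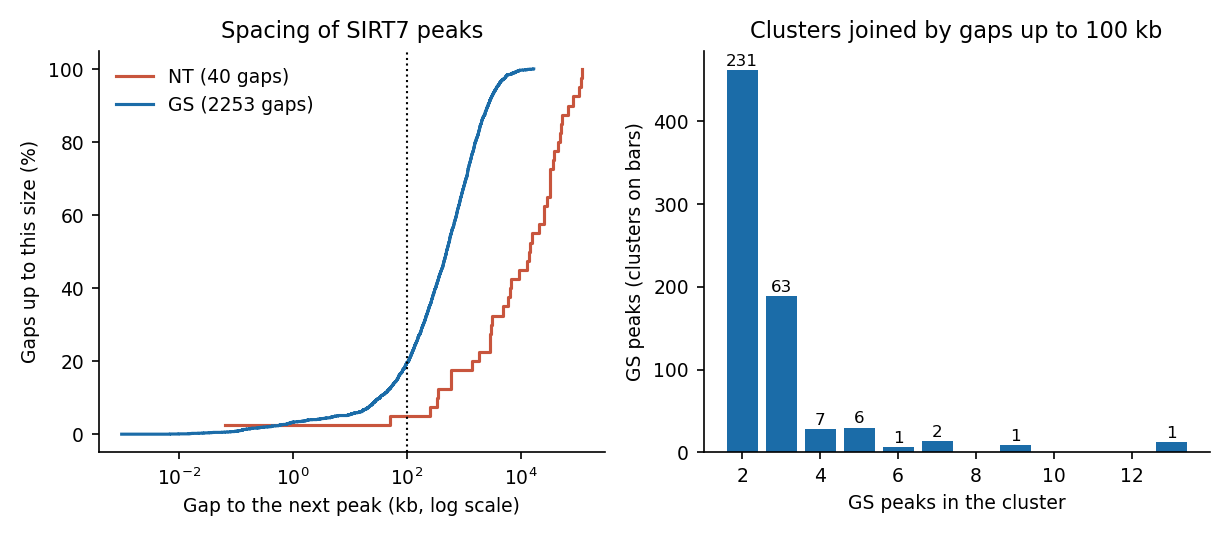
Left, share of gaps between neighbouring peaks up to a given size, in percent against kb on a log axis, for NT (40 gaps) and GS (2253 gaps), with a dotted line at 100 kb. Right, GS peaks held by clusters of each size, with the number of clusters on the bars. Clusters of 2 peaks number 231, and 1 cluster holds 13.

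With peaks joined across gaps of up to 100 kb, about 1 GS peak in 3 belonged to a cluster. The 751 clustered peaks (33.1%, interval 31.2 to 35.02%) formed 312 clusters, of which 231 had 2 peaks, 63 had 3 and 18 had 4 or more. Kept and gained peaks were clustered alike, 11 of 32 (34.4%, interval 20.4 to 51.7%) and 740 of 2240 (33.0%, interval 31.1 to 35.01%), although the interval for kept peaks is wide. The 9 clusters with a kept peak had 2 or 3 peaks each. Clusters of 4 or more held 4.401% of all GS peaks and 0 of the 32 kept ones, for which the upper limit is 9.38%. The NT list had a single cluster, 3 peaks at chr11:34444182-34497212. All 3 were kept, and their GS counterpart was a cluster of the same 3 sites with scores of 1000 at each.

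Several of the largest clusters lay on proximal chromosome 7. All their peaks were gained, as were 98.6% of the whole list. The largest held 13 peaks at chr7:7343072-7642879, the third 7 peaks at chr7:10537450-10691431, and the fifth 6 peaks at chr7:9640874-9753862. Of the 6 clusters of 5 peaks, the 3 with the shortest span lay at chr7:10233926-10288210, chr7:7769605-7852686 and chr7:8954614-9089872, and the others on chromosomes 9, 12 and 16. The other 2 with more than 5 were 9 peaks at chr5:11318747-11673287 and 7 peaks at chr6:130527749-130838453. The chromosome 6 cluster also enclosed 1 lost NT peak, the one at 1.93 kb named above. Altogether 9 of the 18 clusters with 4 or more peaks, and 53 of their 100 peaks, were on chromosome 7 before 12 Mb.

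That stretch of chromosome 7, chosen after its values were seen, held 74 GS peaks, from chr7:3901713 to 11740427. They made up 45.1% of the 164 GS peaks of chromosome 7 and 3.26% of the GS list. No NT peak lay there. Its peaks were wide, with a median of 2350 bp against 1177 bp over the list, and had a median score of 690 against 629. Over the list, the median width stood out only in large clusters, many of whose peaks came from this stretch. The median width was 1921 bp (interval 1670 to 2043 bp) in clusters of 4 or more, 1171 bp in clusters of 2 or 3 and 1140 bp for the 1521 lone peaks (interval 1093 to 1196 bp). Of the 100 peaks in large clusters, 53 came from proximal chromosome 7. The median widths of single large clusters ran from 1824 to 4533 bp there. Elsewhere they ran from 790 bp (chromosome 16) to 2020 bp (chromosome 5), so large clusters were not wide everywhere.

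Distal chromosome 4, also chosen after its values were seen, behaved differently, with wide peaks in both treatments. Between 145 and 147 Mb it held 4 NT peaks, of which 3 were kept, and 9 GS peaks, of which 6 were gained. The NT peaks spanned 4265 to 7269 bp. The GS peaks spanned 3787 to 11787 bp with a median of 6439 bp, and 5 of the 12 autosomal GS peaks over 5 kb lay there. The kept peak chr4:145118639-145123056 scored 706 in NT, and its GS partner of 4426 bp scored 1000. Only 1 bp separated that GS partner from a gained peak of 8713 bp at chr4:145123069-145131781. The kept peak chr4:146084439-146088703 scored 752 in NT and had a partner of 4293 bp at 1000. The stretch thus had NT peaks at 4 places and GS peaks at 3 of these places and several others.

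Along the chromosomes, SIRT7 peaks of starved cells thinned out from the centromere end to the distal end. Mouse chromosomes carry the centromere at the end where coordinates start. With each chromosome divided into 10 equal parts, the first part held 373 GS peaks (16.4%, interval 14.95 to 17.997%) and the last 134 (5.90%, interval 5.00 to 6.94%), a ratio of 2.78. The first part includes the unassembled initial 3 Mb, where no peak can be placed. Gained peaks numbered 368, 302, 264, 194, 224, 213, 225, 150, 172 and 128 from the first part to the last. The decline was thus uneven, with a level stretch in the middle. The centromere side, below 50% of the length, held 60.2% of GS peaks (interval 58.2 to 62.2%). It held more than the distal side on 16 of 19 chromosomes, with a mean of 59.5% (SD 11.9, n = 19 chromosomes), the lowest being 37.6% (chromosome 17) and the highest 81.6% (chromosome 11). Without chromosome 7, added after seeing the data, the first and last parts held 294 and 129 peaks, a ratio of 2.28.

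NT peaks did not show that slope. The centromere side held 24 of 58 (41.4%, interval 29.6 to 54.2%), and the interval does not overlap that of GS. The distal 2 of the 10 parts held 23 NT peaks (39.7%, interval 28.1 to 52.5%) against 310 GS peaks (13.6%, interval 12.3 to 15.1%). Of these NT peaks, 4 lay between 145 and 147 Mb of chromosome 4 and 3 in the interval chr4:126057887-143041001. NT positions were not recomputed without chromosome 4. Kept and lost sites both contributed. The same 2 parts held 10 of 32 kept peaks (31.3%, interval 17.95 to 48.6%) and 13 of 26 lost peaks (50%, interval 32.1 to 67.9%). No lost peak lay in the first part, which with 26 peaks allows a share of up to 11.5%. In that part lay 5 of 32 kept peaks (15.6%, interval 6.86 to 31.8%), against 16.4% of gained peaks. The intervals of kept and lost peaks overlap, and their difference in position was not tested.

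**Figure D4:**
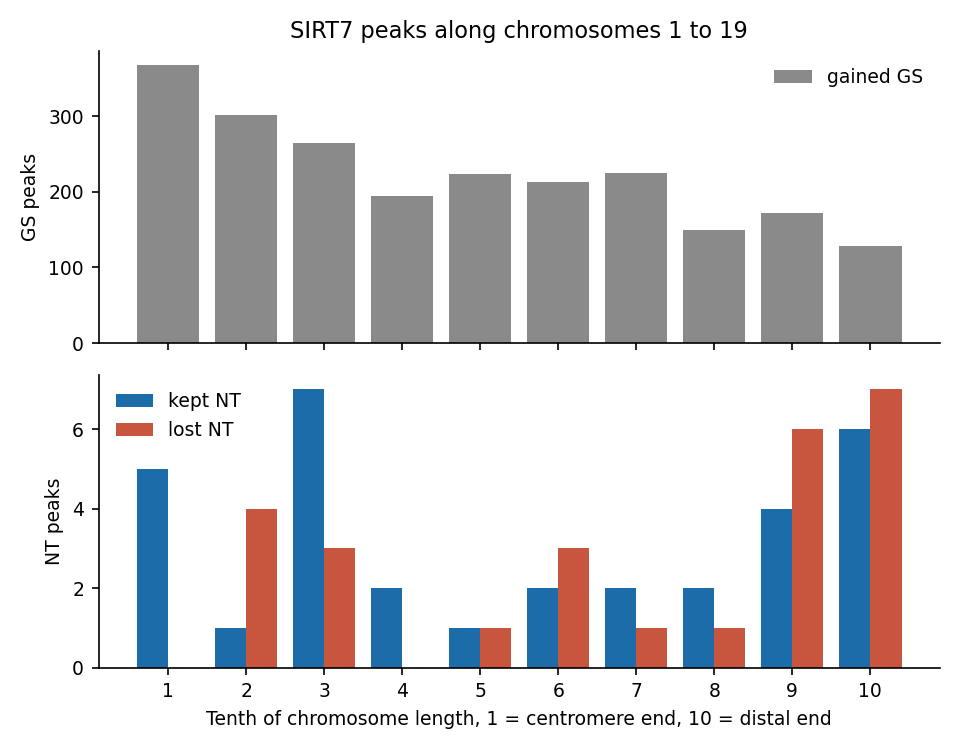
Number of peaks in each of 10 equal parts of chromosome length, from the centromere end (1) to the distal end (10), summed over chromosomes 1 to 19, for gained GS peaks (top) and kept and lost NT peaks (bottom). Gained peaks go from 368 in the first part to 128 in the last, while 23 of 58 NT peaks lie in parts 9 and 10.

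By chromosome, kept and lost sites were unevenly shared out, in small numbers. Chromosome 4 had the most NT peaks, 8, of which 3 were kept. Chromosomes 1, 9, 12, 13 and 14 kept all of theirs, from 1 to 4 peaks each, and chromosomes 8, 15, 16 and 19 lost all of theirs, from 1 to 3 each. The other 9 chromosomes with NT peaks had both. GS peaks were gained on every autosome, from 40 on chromosome 19 to 209 on chromosome 1. Chromosome 7 stood apart from the others in spacing and had the highest share of clustered peaks. Its median gap was 203 kb against a mean of 528 kb (SD 131 over 19 chromosomes, chromosome 7 included). Of its GS peaks 50% were clustered against a mean of 32.1% (SD 8.41). Chromosomes 14, 11 and 13 came next, with 43.75, 43.7 and 41.8% clustered. The median width on chromosome 7 was 1639 bp against a mean of 1181 bp (SD 139). The densest windows of 1 Mb were also on chromosome 7, with 19 GS peaks from 7 to 8 Mb and 16 each from 9 to 10 and 10 to 11 Mb. Its window from 8 to 9 Mb held 13, as did that on chromosome 5 from 11 to 12 Mb.

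**Figure D5:**
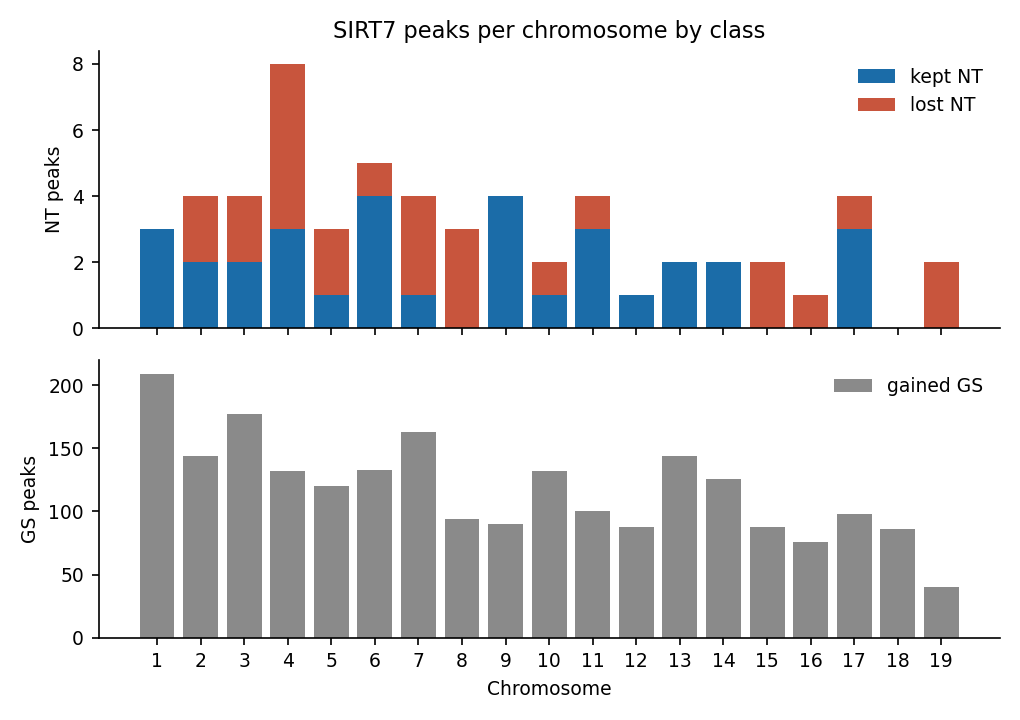
Number of NT peaks, kept and lost, stacked (top) and of gained GS peaks (bottom) on each of chromosomes 1 to 19. Chromosome 4 has 8 NT peaks, chromosome 18 has none, and gained peaks run from 40 on chromosome 19 to 209 on chromosome 1.

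A further readout that did not define the classes was the deposited chromatin segmentation of wild-type cells, tied by the labels to H3K27me3, the histone mark of Polycomb repression, and macroH2A1. It assigns each 200 bp bin to 1 of 4 states, U1 to U4, whose meaning the sources do not give. U1, which also covers unassembled chromosome starts, took up 69.4% of the autosomes in WT-NT and 68.99% in WT-GS. Each peak was given the state covering most of its bases. All 3 classes lay mostly in U1. In WT-NT it held 26 of 32 kept NT peaks (81.3%, interval 64.7 to 91.1%), 22 of 26 lost peaks (84.6%, interval 66.5 to 93.9%) and 1955 of 2240 gained peaks (87.3%, interval 85.8 to 88.6%). The intervals of the kept and lost peaks overlap and include the autosomal share, while that of gained peaks lies above it. In WT-GS the counts were 25, 21 and 1917 (85.6% of gained peaks).

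U2 took up 20.8% of the autosomes in WT-NT and held 9 NT peaks. Of these, 5 were kept (15.6% of kept peaks, interval 6.86 to 31.8%) and 4 lost (15.4% of lost peaks, interval 6.15 to 33.5%), and both intervals include the autosomal share. They included the kept site chr1:45007912-45008202, with the top NT score, and the lost site chr19:56396778-56397626. The single NT peak in U3 was chr2:60240545-60241484. It was kept. By the WT-GS segmentation its NT outline fell in U1 and the outline of its GS partner, which shared 96.0% of the NT bases, in U3. U4 held 0 of 2240 gained peaks in WT-GS, which allows a share of up to 0.134%, while it took up 1.71% of the autosomes. Here, as for U1 and U2, peaks were counted by their main state and the autosomes by bases. Short U4 stretches inside peaks therefore went uncounted. In WT-GS, U1 held 96 of 100 peaks of clusters of 4 or more (interval 90.2 to 98.4%) against 83.4% of lone peaks (interval 81.4 to 85.2%). Of these 100 peaks, 53 came from proximal chromosome 7, where all 74 GS peaks were in U1 in both segmentations. The contrast with lone peaks was not recomputed without that stretch. Between WT-NT and WT-GS the state differed at 3 of 32 kept NT peaks, 1 of 26 lost peaks and 144 of 2240 gained peaks (6.43%, interval 5.49 to 7.52%). For comparison, the state differed over 9.60% of autosomal length, a share of bases rather than of peaks.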

How the data were processed

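Software named in the submitters' processing notes, without a role, was MACS 1.4.2 and Bowtie, besides deepTools 2.4.2, SAMtools 0.1.19, FastQC 0.11.3 and Trimmomatic 0.36; the builds named were mm9 and hg19. Coordinates are mm9, counted from 1. Per the labels, 1 peak list and 1 segmentation per treatment stand for both replicates. The authors deposited a score with each peak; neither its formula nor the list cutoff is stated in the sources used here.

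Peaks on chromosomes 1 to 19 were compared by position with Python 3.11.15, NumPy 2.4.6, SciPy 1.17.1 and pandas 2.3.3. Distances run edge to edge, clusters join gaps of up to 100 kb, and chromosome lengths come from the segmentations. Shares have Wilson and medians binomial order-statistic 95% intervals, which treat peaks as independent, although neighbouring peaks are not. The upper limit given for a share of 0 is instead 3 divided by the number of peaks. It is somewhat lower than the Wilson limit (11.5 against 12.9% for 0 of 26). No test was made, since each treatment has 1 list. The code was tested on simulated data. Named peaks were the 10 kept, 8 lost and 8 gained with the highest score (ties by width), the 8 largest clusters, those with 2 or more NT peaks, and the 5 densest windows of 1 Mb. Peaks, classes and rules were chosen with earlier results of these data known. Genes and sequence were not assigned, because the annotation used here is of another build. Knockout segmentations were not used.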

Additional observations from a re-analysis of the deposited data

How the results depend on the processing

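Of 45 recomputed values over 23 results, 37 stayed within the main value's interval. Requiring an overlap of at least 50% of the shorter peak, or allowing 1 kb between peaks, left 32 of 58 NT peaks kept. The 50% rule left every class unchanged, so widths and scores by class could not move under it. These values are among the 37, which therefore overstates how far the results were tried. The share gained among the 58 highest-scoring GS peaks, given below, is not among the 45. With the upper part of each list by score (at or above the median), the share kept was 72.4% (21 of 29), the median distance from lost NT peaks to a GS peak 1854 kb, GS spacing 1165 kb and the share of GS peaks in clusters 20.2%; the cause was not tested. With only the 58 highest-scoring GS peaks, 37.9% of NT peaks were kept and 62.1% of these GS peaks were gained. The share in clusters was 22.5% with gaps of up to 50 kb and 48.5% with up to 200 kb. With each cluster counted once, 58.0% of GS places lay on the centromere side, and the first and last parts held 245 and 112. With length counted after the initial 3 Mb they held 450 and 131. No paired analysis was possible because each list pools both replicates, and for the same reason no replicate could be left out. Read depth is unknown, so peaks missing from a list may lie below its cutoff.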

Other observations

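A set of NT peaks had nearly the same width. No autosomal NT peak measured 3500 to 4000 bp, 5 measured 4260 to 4418 bp, and none measured 4500 to 7000 bp. The 5 were chr2:50846032-50850347, chr4:145118639-145123056, chr4:145481540-145485809, chr4:146084439-146088703 and chr15:91736749-91741008. Of these, 2 were kept and 3 lost. In the GS list, widths in steps of 200 bp numbered 8, 10, 11, 6, 14, 6, 5 and 4 from 3400 to 5000 bp. The step from 4200 to 4400 bp held the most of these, 14. Just below this range the steps from 3000 to 3200 and from 3200 to 3400 bp held more, 37 and 16. These widths were looked at after seeing the values, and no repeat annotation was used here.

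Many close GS peaks came as adjoining peaks. Gaps of at most 1 kb joined 147 GS peaks into 72 runs, 69 of them of 2 peaks, and merging them would leave 2197 regions. Proximal chromosome 7 held 14 of the 72 runs. The median width was 1483 bp within runs and 1168 bp outside them.

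The density of GS peaks at the very ends of the assembled chromosomes depended on the length taken. The last 0.5 Mb of the 19 chromosomes held 17 GS peaks on 12 chromosomes, 1.79 per Mb against 0.919 per Mb over the autosomes, and the last 1 Mb held 22, 1.16 per Mb. The initial 0.5 Mb after the unassembled sequence held 8 GS peaks, 0.842 per Mb, and the initial 1 Mb held 23, 1.21 per Mb. The ends thus differed at 0.5 Mb and were nearly alike at 1 Mb, in small counts given without intervals. NT had 1 peak in the last 0.5 Mb and none in the initial 0.5 Mb.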
